A study of Mus musculus with 22 samples.

Results

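The MAP kinase phosphatases and Sprouty proteins are inhibitors that cells make in response to the signals they shut off. The genes followed here were Dusp1, Dusp2, Dusp4, Dusp6, Dusp8, Dusp14 and Dusp16, which encode dual-specificity phosphatases, and Spry1, Spry2 and Spry4. They were chosen by name, and each was read from the probe set that the platform annotation assigns to it, taking the one with the highest mean where there was more than 1. Of the 10 genes, 9 were measured, among 11807 genes in all. Spry2 and Spry4 had 2 probe sets each, and Dusp4 was not analysed here.

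The RNA came from the scraped intima of the aorta of C57BL/6 mice and was read on 22 Affymetrix arrays in 6 groups. Fresh intima was taken at 4 weeks of age from ApoE -/- mice (n = 4), labelled as hyperlipidemic before lesions, and from wild-type mice (n = 6), both on chow. Opened wild-type aortas, of an age that the labels do not give, were held for 4 h in DMEM with 1% FBS. They received nothing else (medium), LPS at 4 ng/mL, oxidized LDL (oxLDL) at 50 µg/mL or the oxidized phospholipid oxPAPC at 50 µg/mL, with 3 arrays each. Neither the number of animals behind an array nor whether arrays came from separate animals is given, so that p-values reflect only array-to-array spread, which may be technical.

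Growth factor receptors signal through Ras, Raf, MEK and ERK, whereas stress and inflammatory signals run mainly through JNK and p38. Dual-specificity phosphatases remove phosphate from both the threonine and the tyrosine of the kinase activation loop, and Sprouty proteins act upstream, between the receptor and Raf. Many of these genes are themselves induced within minutes to hours by the pathway they restrain, and in endothelium Dusp1 and Sprouty proteins are known to limit inflammatory signalling and vessel sprouting.

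All values below are RMA signals on the log2 scale, so a difference of 1 is a doubling of signal, and levels of different genes were not compared. Array medians lay between 5.227 and 5.392, and the number of arrays limits the precision. In the knockout arrays Apoe itself averaged 3.11, against 4.11 in wild type, with no overlap (two-sided exact permutation p = 0.00952, the smallest that 4 against 6 arrays can give). Of the endothelial markers, 14 of the 16 on the array lay above the 40th percentile of every array, the level used as a filter, and so did 11 of 12 smooth muscle markers. Markers of both cell types were thus measured in each sample. In such bulk samples fewer cells of a type and less RNA per cell cannot be told apart.

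**Figure D1:**
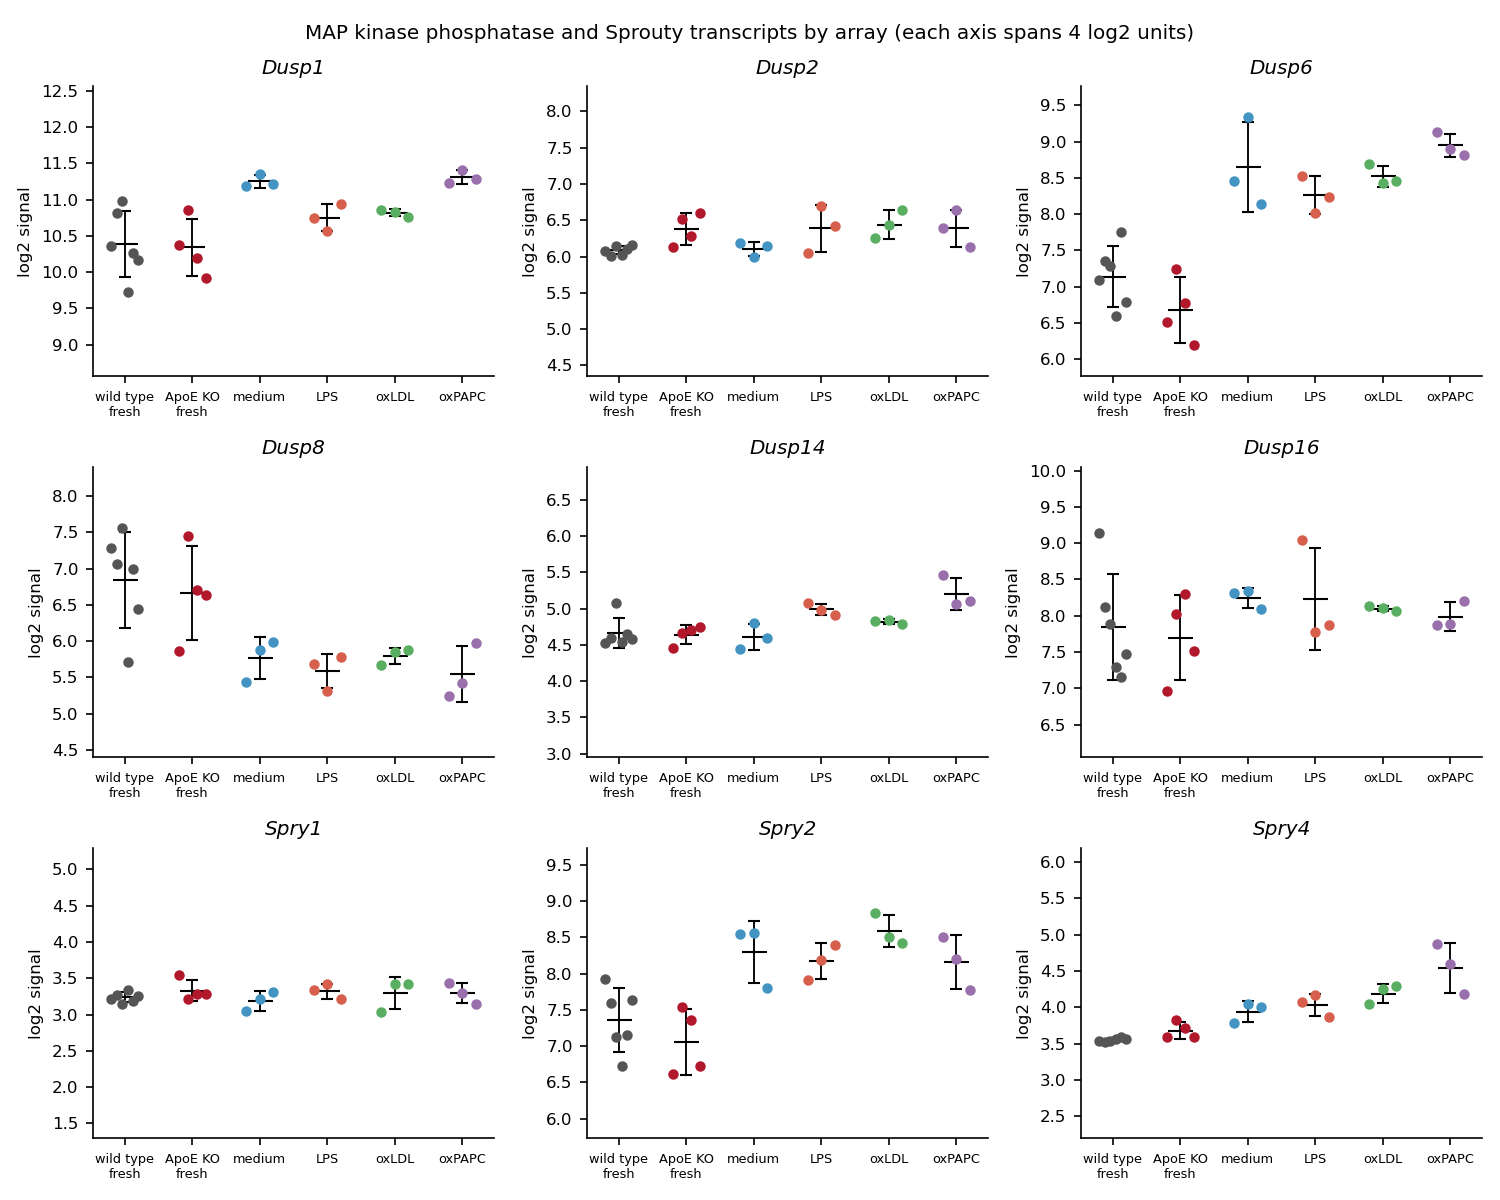
Log2 signal (vertical axis) of the 9 measured genes on each of the 22 arrays (points) in the 6 groups, with the mean ± SD of each group in black; each axis spans the same number of log2 units. Dusp6 and Spry2 sat higher and Dusp8 lower in the incubated groups than in fresh intima, and Dusp1 separated the LPS and oxLDL arrays from the medium and oxPAPC arrays.

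Incubation in medium was compared with fresh wild-type intima to see how the genes stood after 4 h outside the animal. Dusp6, Spry2 and Dusp1 rose and Dusp8 fell, while Dusp2, Dusp14 and Dusp16 did not pass the test. Thus 4 of the 7 genes above the level filter were called by limma at an adjusted p under 0.05, 3 higher and 1 lower. Of all 7513 genes tested, 58.7% were called, 24.3% higher and 34.4% lower, so a call in this comparison was common. The median difference was 0.40 over the 7 genes and 0.39 over all 9 measured, against -0.13 over all genes tested, a figure that another scaling moved to 0.01 or 0.02. The age of the incubated aortas is not in the labels, so incubation and age cannot be told apart.

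Dusp6 encodes a cytoplasmic phosphatase that acts on ERK. Its log2 signal in fresh wild-type intima had a lowest value of 6.59, a median of 7.19 and a highest of 7.75, and the medium arrays read 8.46, 9.34 and 8.14. The groups did not overlap. Dusp6 was 2.83-fold higher in medium (log2 difference 1.50 ± 0.29, standard error; 95% interval 0.86 to 2.15; limma adjusted p = 0.00119).

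Spry2 encodes a Sprouty protein that is phosphorylated downstream of growth factor receptors and holds back Ras and Raf. Its wild-type values ran from 6.72 through a median of 7.38 to 7.92, and the medium arrays gave 8.54, 8.56 and 7.80, the last of them inside the wild-type range. The difference was 1.92-fold (log2 0.94 ± 0.26; interval 0.36 to 1.52; limma adjusted p = 0.0101). The second Spry2 probe set read 0.58 ± 0.34 higher, which did not pass the test (limma adjusted p = 0.209 with no level filter).

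Dusp1 encodes the nuclear phosphatase MKP-1, an immediate early gene product that acts chiefly on p38 and JNK. In fresh wild-type intima its lowest, median and highest signals were 9.72, 10.32 and 10.98, and the 3 medium arrays read 11.19, 11.35 and 11.21. All 3 medium arrays lay above all 6 fresh ones, and the spread was smaller after incubation (SD 0.455 fresh and 0.088 in medium). Dusp1 was 1.82-fold higher (log2 0.86 ± 0.24; interval 0.34 to 1.39; limma adjusted p = 0.00962).

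Dusp8 encodes a phosphatase for JNK and p38. It was the only gene of the 7 called lower: wild-type arrays ran from 5.72 through a median of 7.03 to 7.56, and medium arrays gave 5.44, 5.88 and 5.99. A single wild-type array, the lowest, fell within the medium range. The difference was -1.07 ± 0.34 on the log2 scale, or 2.1-fold lower (interval -1.83 to -0.31; limma adjusted p = 0.0203).

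The promoters of the 2 phosphatases that moved in opposite directions, Dusp1 and Dusp8, are shown because they were the only ones among the 8 searched that held a complete cyclic AMP response element (CRE, TGACGTCA, which reads the same on both strands). The windows are the 250 bases before the RefSeq start (GRCm38.p6), both on the minus strand, at chr17:26508473-26508722 for Dusp1 and chr7:142095285-142095534 for Dusp8. Capitals mark the CRE.
Dusp1: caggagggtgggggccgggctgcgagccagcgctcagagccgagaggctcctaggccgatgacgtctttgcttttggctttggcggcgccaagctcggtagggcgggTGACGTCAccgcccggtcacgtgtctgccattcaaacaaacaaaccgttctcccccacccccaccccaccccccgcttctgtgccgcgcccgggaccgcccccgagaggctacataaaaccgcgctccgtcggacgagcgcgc
Dusp8: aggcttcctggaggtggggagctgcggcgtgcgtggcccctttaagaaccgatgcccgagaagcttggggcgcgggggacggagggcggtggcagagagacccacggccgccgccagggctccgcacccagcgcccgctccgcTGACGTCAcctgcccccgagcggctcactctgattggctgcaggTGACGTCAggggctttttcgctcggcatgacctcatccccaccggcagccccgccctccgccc

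The element began 143 bases before the start in Dusp1 and 107 and 63 bases before it in Dusp8. It was present in 508 of 32851 RefSeq promoter windows of the same length, or 1.55%. The shorter core TGACG, which overlaps the complete element and was searched on both strands, was present in 17.8% of windows and in 3 of the 8, with Dusp16 as the third. Other motifs, also searched on both strands, had no match in the 8 windows. These were AP-1 (TGACTCA, in 4.46% of all windows), the ETS motif (CCGGAAG, 6.91%), the FOXO motif (TGTTTAC, 3.17%), the CArG box (1.47%) and the NF-kB motif (2.14%). A match is a description of these letters only, and the promoters of Dusp4 and Spry4 were not searched.

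The remaining genes changed less. Dusp16, which encodes another phosphatase for JNK and p38, ranged from 7.16 through a median of 7.68 to 9.14 in wild-type intima and read 8.32, 8.34 and 8.09 in medium, a difference of 0.40 ± 0.37 (interval -0.40 to 1.21; limma adjusted p = 0.364). The highest wild-type array, replicate 7, decided that result: without it the difference was 0.66 and the limma adjusted p 0.0266, and over all alternatives the adjusted p lay between 0.0266 and 0.921. Dusp2, the inducible nuclear phosphatase PAC-1, differed by 0.03 ± 0.10 (interval -0.19 to 0.24; limma adjusted p = 0.838). Dusp14, a small phosphatase, differed by -0.05 ± 0.15 (interval -0.37 to 0.27; limma adjusted p = 0.777).

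Spry1 and Spry4 lay below the level filter. Spry1 was never above the 40th percentile of an array, with group means between 3.19 and 3.33. Spry4 in fresh wild-type intima had a lowest value of 3.52, a median of 3.55 and a highest of 3.59, and read 3.78, 4.05 and 4.00 in medium. In a fit of all 11807 genes without the filter, in which 40.8% of genes were called, Spry4 was called higher (log2 0.39 ± 0.08; limma adjusted p = 0.00257), and its second probe set gave 0.40 ± 0.14 (limma adjusted p = 0.0476). Because signals this low are close to background, the size of that difference is poorly defined.

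**Figure D2:**
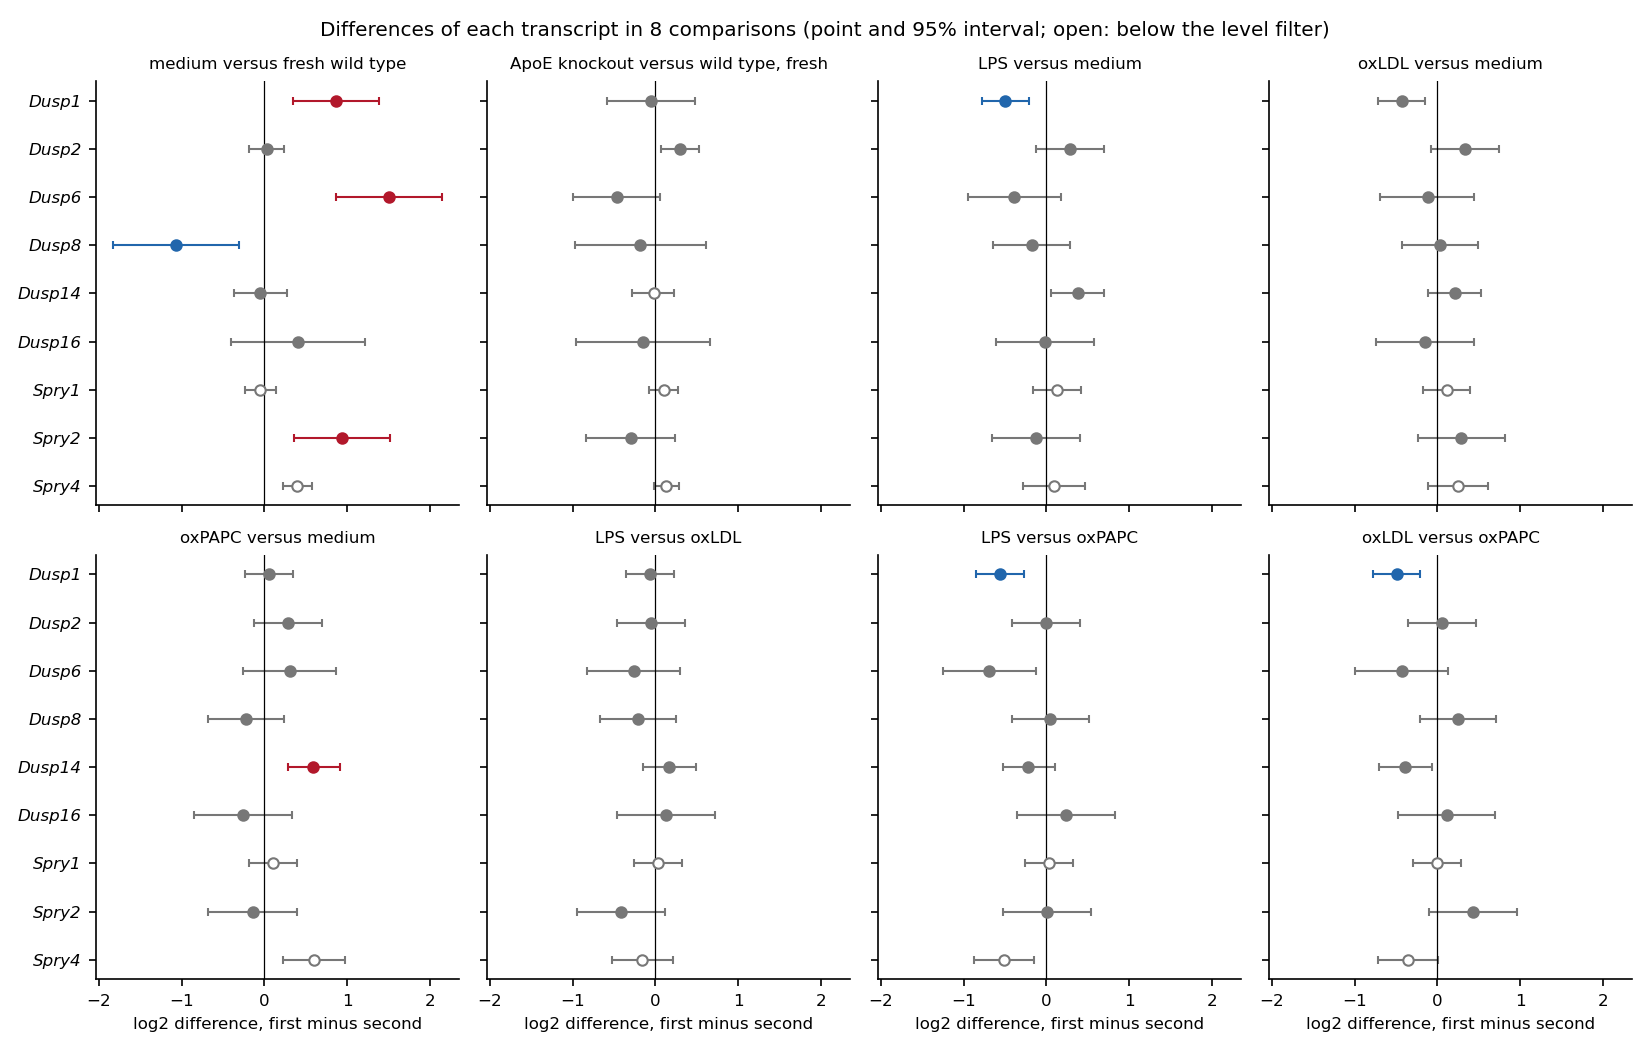
Log2 differences (horizontal axis) of the measured genes in 8 comparisons (panels), first group minus second, with 95% intervals from limma. Red is called higher and blue called lower at an adjusted p under 0.05, grey is not called, and open grey points are genes below the level filter, from the fit without it, whatever their call there. Between medium and fresh wild type Dusp6 differed by 1.50, Spry2 by 0.94, Dusp1 by 0.86 and Dusp8 by -1.07, whereas most intervals for the stimuli cross 0.

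Markers of several cell types moved with this comparison. The mean smooth muscle signal over the 12 markers ranged from 8.77 to 9.69 in fresh wild-type intima and from 7.62 to 8.61 in medium, and 10 of the 12 fell while none rose. Macrophage markers ranged from 4.71 to 5.29 fresh and from 5.94 to 6.11 in medium, with 8 of 10 tested markers higher and 1 lower. Fibroblast markers ranged from 8.17 to 8.60 fresh and from 7.08 to 7.77 in medium, with 5 of 8 lower and 2 higher, and 3 of 6 tested erythroid and platelet markers fell and none rose. Endothelial markers averaged 8.39 fresh and 8.50 in medium, with 5 of 15 higher and 2 lower. The part of markers other than smooth muscle in the results was not tested. With the smooth muscle level as a covariate, Dusp6 (1.74; limma adjusted p = 0.0291) and Dusp1 (1.44; adjusted p = 0.0148) were still called. Dusp8 (-0.09; adjusted p = 0.901) and Spry2 (0.43; adjusted p = 0.478) were not. The covariate also lowered the share of all genes called, from 58.7% to 30.5%. Every medium array lay below every fresh wild-type array in smooth muscle level, so this fit cannot tell that level and incubation apart. Over all alternatives the limma adjusted p of Dusp8 ran from 0.00124 to 0.901 and that of Spry2 from 0.00376 to 0.478.

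The medium array numbered 9 also mattered. Without it Dusp8 (-0.91; limma adjusted p = 0.0883) and Spry2 (0.82; adjusted p = 0.0507) missed the threshold, and the count of called genes went from 4 to 2. The share of all genes called fell as well, from 58.7% to 49.0%. Dusp6 (1.16 to 1.76) and Dusp1 (0.73 to 0.98) were called whichever of the 9 arrays was left out.

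**Figure D3:**
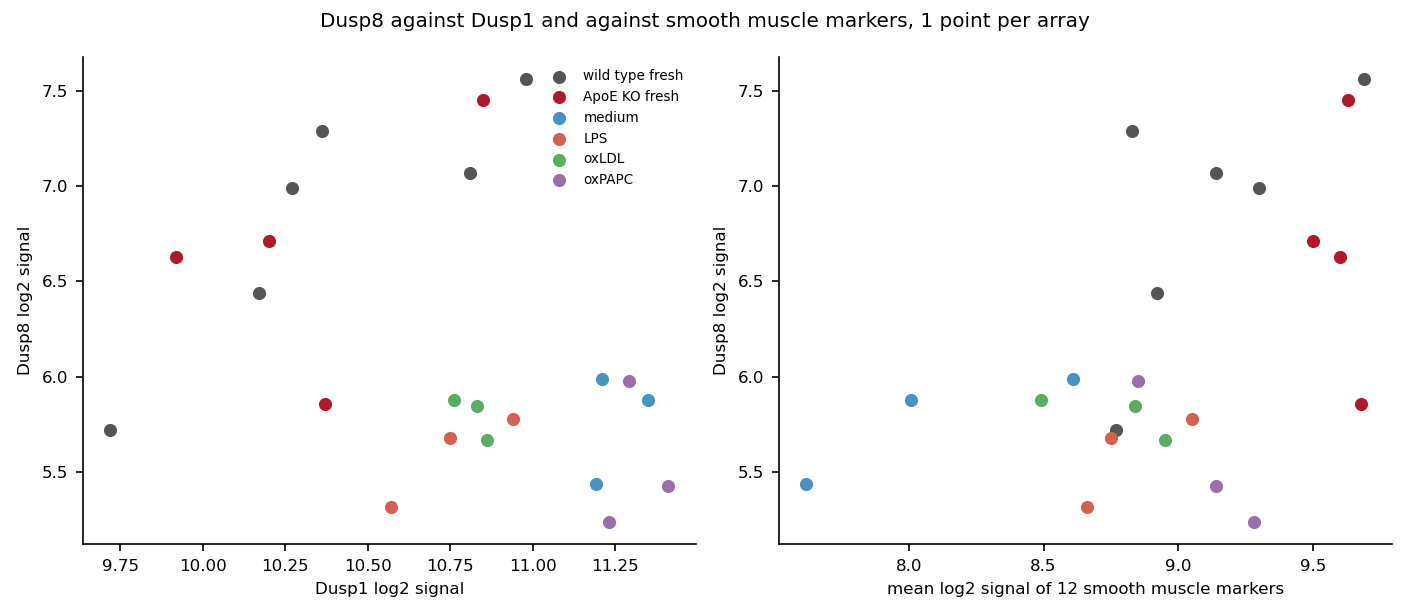
Log2 signal of Dusp8 (vertical axis) against the log2 signal of Dusp1 (left) and against the mean log2 signal of the 12 smooth muscle markers (right), 1 point per array, coloured by group. Incubated arrays lie low on the left panel, with Dusp8 at no more than 5.99, and on the right panel the medium arrays span marker levels from 7.62 to 8.61, below all fresh arrays.

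Other genes of the same pathway were counted in the same comparison, in which 24.3% of all genes tested rose and 34.4% fell. The level filter can admit a gene through the group where it is high, so medians are also given over all list members on the array. In a list of other genes with a part in feedback on growth factor signalling, 7 of 10 tested rose and 1 fell in medium (median 0.92, and 0.80 over all 11). The leading ones were Errfi1 (4.14 ± 0.33; limma adjusted p = 3.49e-06), which encodes an inhibitor of the EGF receptor, Ier3 (3.27 ± 0.32; 1.34e-05) and the adaptor Sh2b3 (1.38 ± 0.15; 2.34e-05). Transcripts that respond to ERK rose in 11 of 18 and fell in 1 (median 1.17, and 0.66 over all 20), led by the AP-1 subunit Fosl1 (4.33), the cytokine Lif (4.22) and Myc (4.09).

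Growth factor ligands rose in 8 of 12 and fell in none (median 1.00, and 0.30 over all 18). Hbegf, an EGF receptor ligand, was 4.77 ± 0.43 higher (limma adjusted p = 7.59e-06), Vegfa 2.40 and Pgf 2.37. Their receptors were split, with 2 higher and 4 lower of 12. Flt1, a VEGF receptor, rose by 1.95 and Fgfr1 by 0.85, and Fgfr3 fell by 0.87.

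In the Ras to ERK cascade 2 of 14 genes rose and 5 fell. This cascade, the receptors, the JNK and p38 cascades and the AU-rich element binding proteins were thus called at shares near the 58.7% of all genes. Map2k1, which encodes the kinase MEK1 directly above ERK, was 1.81 ± 0.16 higher (limma adjusted p = 6.94e-06), and Rras fell by 1.36 and Map2k5 by 1.23. In the JNK and p38 cascades 8 of 19 rose and 4 fell, with the stress adaptors Gadd45a (4.22) and Gadd45b (3.67) and the p38 kinase activator Map2k3 (1.86) in front. Of the genes for AU-rich element binding proteins, 2 of 5 rose (Hnrnpd by 0.68, Elavl1 by 0.51) and Auh fell by 1.25.

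Of the relatives of the phosphatases, 1 rose and 4 fell of 9 tested. The median was -0.30 over these 9 and 0.04 over all 15 on the array. Dusp10, a phosphatase for JNK and p38, was 1.34 ± 0.30 higher (limma adjusted p = 0.0032). Ptprr, a tyrosine phosphatase that acts on ERK, fell by 1.79 (adjusted p = 5.84e-05) and Dusp19 by 1.35 (5.53e-05).

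**Figure D4:**
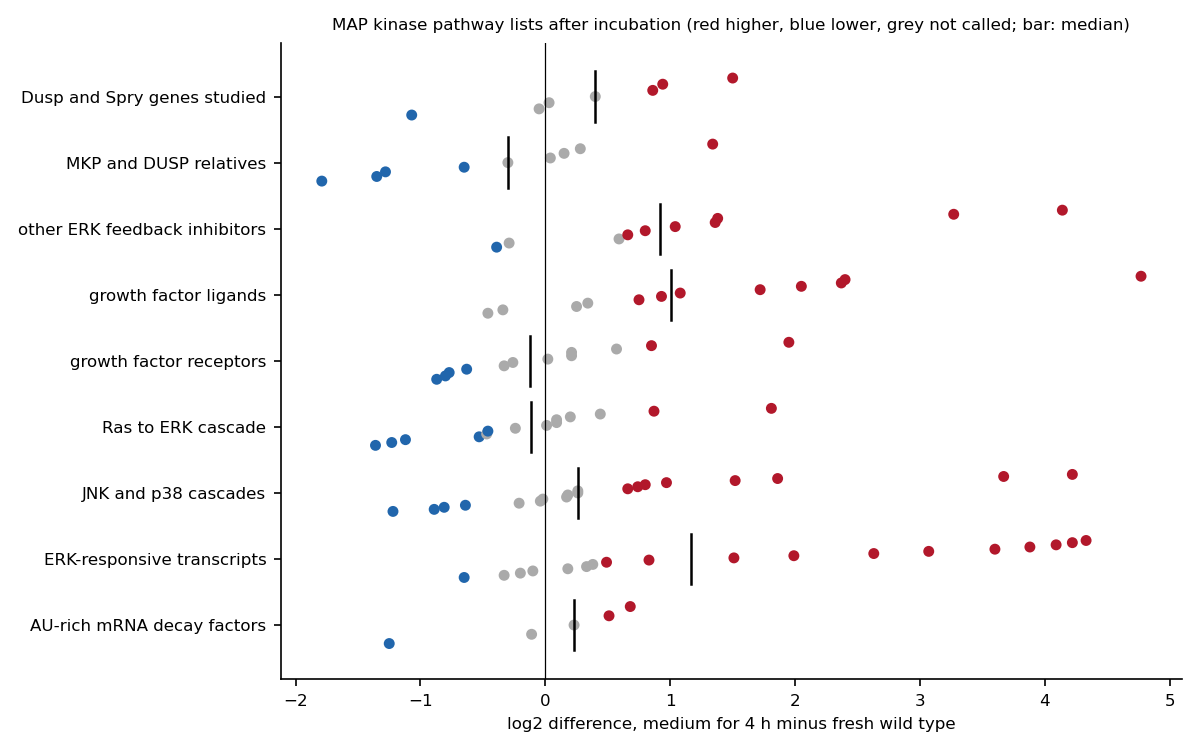
Log2 difference between medium and fresh wild-type intima (horizontal axis, log2 units) for each tested gene of the Dusp and Spry group and of 8 pathway lists (rows); red is called higher and blue lower by limma at an adjusted p under 0.05, grey is not called, and bars mark medians. Medians of the tested genes run from -0.30 for the phosphatase relatives to 1.17 for ERK-responsive transcripts, beside -0.13 for all genes tested; over all list members on the array those of these lists were 0.04 and 0.66.

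In fresh intima, ApoE -/- mice were compared with wild type to see whether the genes differ before lesions. None of the 6 genes above the level filter was called by limma, with 1 at an unadjusted p under 0.05, and 0.428% of the 7247 genes tested were called. Their median difference was -0.16, and -0.05 over all 9 measured, against -0.02 over all genes tested.

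Dusp2 had the smallest p of the 6. The knockout arrays read 6.13, 6.52, 6.28 and 6.60, and the wild-type arrays ran from a lowest value of 6.01 to a highest of 6.16, so that 3 of 4 knockout arrays lay above all wild-type arrays. The difference was 0.30 ± 0.11 (interval 0.07 to 0.53; limma adjusted p = 0.182).

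Dusp6 read 6.51, 7.25, 6.78 and 6.19 in the knockout, overlapping the wild-type range of 6.59 to 7.75, with a difference of -0.46 ± 0.24 (interval -0.99 to 0.06; limma adjusted p = 0.331). Spry2 read 6.62, 7.54, 7.36 and 6.72, a difference of -0.30 ± 0.25 (interval -0.84 to 0.24; adjusted p = 0.548).

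The phosphatases for JNK and p38 overlapped between genotypes as well. The knockout arrays read 10.37, 10.85, 10.20 and 9.92 for Dusp1, all within the wild-type range, with a difference of -0.05 ± 0.24 (interval -0.58 to 0.48; limma adjusted p = 0.931). Dusp8 read 5.86, 7.45, 6.71 and 6.63, also within it (-0.18 ± 0.36; interval -0.97 to 0.61; adjusted p = 0.823). Dusp16 read 6.96, 8.02, 8.30 and 7.52, with 1 array below every wild-type array (-0.15 ± 0.37; interval -0.96 to 0.66; adjusted p = 0.86). Changes of the sizes that these intervals span could not be told from none.

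Dusp14, Spry1 and Spry4 were below the filter in the fresh arrays, with differences of -0.02, 0.10 and 0.13. Of all the pathway lists a single gene was called, the ERK-responsive cyclin Ccnd1, which averaged 7.75 in the knockout and 8.70 in wild type (-0.94; limma adjusted p = 0.0416). The smooth muscle level was 9.50 to 9.68 in the knockout and 8.77 to 9.69 in wild type, with none of the 12 markers called by limma, 8 of them at an unadjusted p under 0.05, and a median difference of 0.49. Of 6 tested erythroid and platelet markers 1 was lower. With the smooth muscle level as a covariate none of the 6 genes was called, and the differences were -0.56 for Dusp1, -0.84 for Dusp6 and -0.77 for Dusp8 (limma adjusted p = 0.523, 0.461 and 0.588).

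The 3 stimuli were each compared with medium. These comparisons share the same 3 medium arrays, so their values are set side by side without counting agreement among them. LPS, a bacterial cell wall component, acts on Toll-like receptors, and oxLDL and oxPAPC are oxidized lipids of the kind found in atherosclerotic lesions.

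Dusp1 was the gene that set the groups apart. The 3 LPS arrays read 10.75, 10.57 and 10.94 and the oxLDL arrays 10.86, 10.83 and 10.76, below every medium array (11.19, 11.35 and 11.21). The oxPAPC arrays read 11.23, 11.41 and 11.29 and overlapped medium. In ascending order of mean the groups were LPS (10.75), oxLDL (10.82), medium (11.25) and oxPAPC (11.31), and neither the first pair nor the last pair differed beyond its spread.

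With LPS, Dusp1 fell by 0.50 on the log2 scale, or 1.41-fold (standard error 0.13; interval -0.78 to -0.21; limma adjusted p = 0.0385). It was the single called gene of 7, where 9.03% of 7550 genes were called, 5.68% lower. The call depended on the arrays included. It held when LPS replicate 10 was left out (adjusted p = 0.0372) and not when any of the other 5 arrays was (adjusted p up to 0.128), with differences from -0.59 to -0.40. Leaving out 1 array also lowered the share of all genes called, from 9.03% to between 3.10% and 4.63%. The Dusp1 call was also missed with the smooth muscle level as a covariate (-0.59, limma adjusted p = 0.136), where 1.51% of all genes were called. Every LPS array lay above every medium array in that level, so this fit cannot tell the level and LPS apart. Over all alternatives the limma adjusted p of Dusp1 ran from 0.00958 to 0.181.

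With oxLDL the Dusp1 difference was -0.43 ± 0.13 (interval -0.72 to -0.15; limma adjusted p = 0.0912), which did not pass. None of the 7 genes was called with oxLDL, 1 was at an unadjusted p under 0.05, and 2.81% of all genes were called. With oxPAPC Dusp1 differed by 0.06 ± 0.13 (interval -0.23 to 0.35; limma adjusted p = 0.769).

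The direct comparisons between stimuli set no group against medium, but the medium arrays were in the same fit and entered its estimate of spread. Dusp1 was 1.47-fold lower with LPS than with oxPAPC (-0.56 ± 0.13; interval -0.85 to -0.27; limma adjusted p = 0.0234; 8.64% of genes called, 3.96% lower) and 1.41-fold lower with oxLDL than with oxPAPC (-0.49 ± 0.13; interval -0.78 to -0.21; adjusted p = 0.0308; 12.4% called, 4.57% lower). It was the single call of 7 in each. Between LPS and oxLDL the difference was -0.06 ± 0.13 (interval -0.35 to 0.22; adjusted p = 0.829), none of the 7 genes was called by limma, 0 were at an unadjusted p under 0.05, and 5.06% of genes were called.

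Those calls too depended on the arrays included, as did the number of all genes called. For LPS against oxPAPC the Dusp1 call held in 2 of 6 cases with 1 array left out, those without LPS replicate 10 or oxPAPC replicate 13, and for oxLDL against oxPAPC in 1 of 6, that without oxPAPC replicate 13. The differences stayed between -0.65 and -0.47 and between -0.54 and -0.44. For LPS against oxPAPC, 670 and 1199 of all genes were called where the Dusp1 call held, and 238 to 306 where it was lost. For oxLDL against oxPAPC these counts were 1367 where it held and 344 to 737 where it was lost. With 1 array left out, loss of the Dusp1 call thus went with fewer calls over all genes. A fit of all 22 arrays, where the wider spread of Dusp1 in fresh intima enters, did not follow this. Its limma adjusted p for Dusp1 was 0.181 for LPS against medium, 0.146 for LPS against oxPAPC and 0.18 for oxLDL against oxPAPC. Calls over all genes rose there, from 682 to 1079, from 652 to 938 and from 934 to 1288 in the same order.

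Dusp14 rose with oxPAPC. Its medium arrays read 4.44, 4.80 and 4.60, LPS arrays 5.07, 4.98 and 4.91, oxLDL arrays 4.83, 4.84 and 4.78, and oxPAPC arrays 5.46, 5.06 and 5.10. Every oxPAPC array was above every medium array. The 40th percentile of the arrays was 4.56 to 4.71. By rank within the array, Dusp14 lay at percentiles 37.6 to 43.6 in medium and 47.9 to 53.6 with oxPAPC, so its signals were low. The increase was 1.51-fold (0.59 ± 0.15; interval 0.28 to 0.91; limma adjusted p = 0.0161), the single call among 7 genes where 21.3% of all genes were called, 8.36% higher.

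Without medium replicate 9 the Dusp14 difference was 0.51 (limma adjusted p = 0.0681) and without oxPAPC replicate 11 it was 0.47 (adjusted p = 0.0676); over all alternatives the adjusted p ran from 0.00666 to 0.449. With LPS the difference was 0.38 ± 0.15 (interval 0.06 to 0.69; adjusted p = 0.117) and with oxLDL 0.21 ± 0.15 (adjusted p = 0.437). Between oxLDL and oxPAPC it was -0.39 ± 0.15 (adjusted p = 0.101), so no difference between stimuli was called for this gene.

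Spry4 read 4.07, 4.17 and 3.86 with LPS, 4.04, 4.25 and 4.29 with oxLDL and 4.87, 4.59 and 4.18 with oxPAPC. All oxPAPC arrays exceeded the highest medium array, but 1 of 3 was above the 40th percentile. Without the level filter, where 15.1% of genes were called, Spry4 was called with oxPAPC (0.60 ± 0.17; interval 0.23 to 0.97; limma adjusted p = 0.0345), whereas its second probe set gave 0.16 ± 0.18 (adjusted p = 0.585). The second set therefore gave no call in the comparison in which the first did.

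Dusp6 was not called with any stimulus. It read 8.53, 8.02 and 8.23 with LPS, 8.69, 8.43 and 8.45 with oxLDL, and 9.13, 8.90 and 8.82 with oxPAPC. The difference from medium was -0.39 ± 0.26 (interval -0.95 to 0.18), -0.12 ± 0.26 and 0.31 ± 0.26 (interval -0.26 to 0.87), with limma adjusted p of 0.356, 0.809 and 0.417. Medium replicate 10, at 9.34, was the highest of all 22 arrays, and without it the oxPAPC difference was 0.65 (adjusted p = 0.0453). The LPS and oxPAPC arrays did not overlap, but that difference did not pass (-0.69 ± 0.26; interval -1.25 to -0.13; adjusted p = 0.121).

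Spry2 read 7.91, 8.19 and 8.40 with LPS, 8.84, 8.51 and 8.42 with oxLDL and 8.51, 8.20 and 7.77 with oxPAPC, and all of these groups overlapped medium. It averaged 8.30 in medium, 8.17 with LPS, 8.59 with oxLDL and 8.16 with oxPAPC, with differences from medium of -0.13, 0.29 and -0.14, each with a standard error of 0.24 (limma adjusted p = 0.763, 0.521 and 0.706). Its 2 probe sets disagreed: between LPS and oxLDL the first gave -0.42 ± 0.24 and the second 0.69 ± 0.28 (adjusted p = 0.353 and 0.231), so no order of the stimuli can be read from it.

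Dusp2 read 6.19, 6.00 and 6.14 in medium, 6.05, 6.70 and 6.42 with LPS, 6.25, 6.43 and 6.64 with oxLDL and 6.40, 6.64 and 6.13 with oxPAPC. The groups given LPS or oxPAPC overlapped medium, and the oxLDL arrays lay above it, with differences of 0.28, 0.33 and 0.28 for LPS, oxLDL and oxPAPC (limma adjusted p = 0.357, 0.343 and 0.309). Dusp8 read 5.68, 5.32 and 5.78 with LPS, 5.67, 5.85 and 5.88 with oxLDL and 5.24, 5.43 and 5.98 with oxPAPC, with means of 5.59, 5.80 and 5.55 against 5.77 in medium (adjusted p = 0.619, 0.95 and 0.482). Dusp16 averaged 8.23, 8.10 and 7.99 against 8.25, and its LPS arrays were uneven at 9.04, 7.78 and 7.87 (adjusted p = 0.971, 0.776 and 0.51). Spry1, still below the filter, averaged 3.32 with LPS and 3.30 with both lipids.

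Marker levels moved with the stimuli as well. Smooth muscle signal ranged from 7.62 to 8.61 in medium, 8.66 to 9.05 with LPS, 8.49 to 8.95 with oxLDL and 8.85 to 9.28 with oxPAPC, and 3, 0 and 9 of the 12 markers rose. Endothelial signal ranged from 8.44 to 8.57 in medium, 7.94 to 8.34, 8.13 to 8.41 and 7.57 to 8.09, and 4, 1 and 8 of 15 tested markers fell with LPS, oxLDL and oxPAPC. Macrophage signal was 5.94 to 6.11 in medium, 5.13 to 5.72, 5.42 to 5.72 and 5.30 to 5.42, with 4, 1 and 8 of 11 lower. Of 8 fibroblast markers 2 fell with each stimulus, and 1 rose with oxPAPC. Their part in the Dusp1 and Dusp14 results was examined only through the smooth muscle covariate. Under it neither gene was called against medium (Dusp14 with oxPAPC 0.44, limma adjusted p = 0.449, 0 of 7550 genes called). Every LPS and oxPAPC array lay above every medium array in smooth muscle level. Those fits therefore cannot tell that level and the stimulus apart.

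The pathway lists were counted beside the 9.03% of all genes called with LPS, 2.81% with oxLDL and 21.3% with oxPAPC, and no list is set apart from these shares here. With LPS the ligands Pgf (-1.41; limma adjusted p = 0.00907) and Vegfa (-0.61; 0.036) fell and Btc rose by 0.58, 3 of 13 ligands tested. In the JNK and p38 cascades 3 of 19 fell, Mapk12 by 1.28, Map3k1 by 1.19 and Mapk14, the main p38 kinase, by 0.65. In the Ras to ERK cascade Map2k5 rose by 0.79 and Sos2 fell by 0.90 and Araf by 0.77, of 14, and 2 of 18 ERK-responsive transcripts fell (Epha4 by 0.78, Elk4 by 0.52). Dusp22 fell by 0.59 among 10 phosphatase relatives, and none of 10 feedback genes or 12 receptors was called. With oxLDL 1 gene of all lists was called, Mapk12, a p38 kinase (-1.39; adjusted p = 0.0208).

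With oxPAPC, Mapk12 (-1.70; limma adjusted p = 0.00243) and Map3k8 (-0.78) fell and Map3k2 rose by 0.68, among 2 higher and 3 lower of 19. The ligands Pgf and Tgfa fell by 1.86 and 1.47 and Fgf2 rose by 0.99, among 2 higher and 2 lower of 13. Fos rose by 0.92 (adjusted p = 0.0234), while Ier2 fell by 0.54 and Elk4 by 0.45, of 18 ERK-responsive transcripts. The mRNA decay factor Zfp36l2 rose by 1.08 (0.00569), 1 of 5 AU-rich element binding proteins. The Ras inhibitor Nf1 rose by 0.93, 1 of 10 feedback genes. Gab1 rose by 1.03 and Araf and Ptpn11 fell by 0.88 and 0.45, of 14 cascade genes.

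Between stimuli, Phlda1, an ERK-responsive transcript, was higher with oxPAPC than with LPS (LPS minus oxPAPC -1.23; limma adjusted p = 0.0331) or oxLDL (oxLDL minus oxPAPC -1.67; 0.00758), and the ERK-responsive Egr2 was higher than with LPS (-1.24; 0.0159). Ccnd1 was lower with oxPAPC than with LPS (1.05; 0.0272) or oxLDL (1.02; 0.0245). Zfp36l2 was higher with oxPAPC than with either (-1.14 in both; 0.00657 and 0.00719). Gadd45b was lower with oxLDL than with oxPAPC (-1.26; 0.0135). The genes named here are a part of the calls. Of 18 ERK-responsive transcripts 1 was higher and 2 lower with LPS than with oxPAPC, beside 8.64% of all genes called. With oxLDL 3 of 18 were higher and 1 lower than with oxPAPC, beside 12.4%. In that comparison 4 of 19 JNK and p38 genes and 2 of 10 feedback genes were lower with oxLDL and none higher, beside 4.57% of all genes lower. Between LPS and oxLDL 1 of 18 ERK-responsive transcripts was lower and none higher, beside 5.06%.

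The genes whose profiles over the 22 arrays were most like these were found among 3598 genes with varied group means. For Dusp6 they were Sat1 (Pearson r = 0.951), Elf1 (0.939) and Jmjd1c (0.934), and for Dusp1 Slc38a2 (0.88), Sgk1 (0.878) and Pfkp (0.85). Dusp8 ran closest with Bloc1s5 (0.854), Ptprr (0.833) and Ndufb10 (0.826), Spry2 with Ppp2ca (0.887), Adamts1 (0.882) and Gpr65 (0.88), and Spry4 with Alkbh5 (0.919), Tgfbr1 (0.914) and Rest (0.902). Dusp14 ran with Ccn3 (0.83), Tgfbr1 (0.824) and Tktl1 (0.792). No gene came as close to Dusp16 (Map3k6, 0.698) or Dusp2 (Cabp4, 0.611), and for Spry1 the closest was Bcl7a (0.496). These correlations are descriptions, and the arrays share the split between fresh and incubated tissue.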

How the data were processed

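The deposited values are log2 signals that the authors made with RMA in affy, per the submitters' processing notes; versions are not given in the sources used here. RMA equalises the distribution of signal across arrays, which hides any general rise or fall. Per the labels' protocols, RNA was amplified before labelling, from preparations with an integrity number of 7.0 or more. Of 22626 probe sets, 18003 had 1 gene symbol, 287 several and 4336 none; 17977 matched a RefSeq table (GRCm38.p6). The first kind named 11807 genes, each read from its probe set with the highest mean.

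A gene was tested if its signal exceeded the array's 40th percentile on enough arrays to match the smallest group: 7247 in fresh intima, 7513 for medium against fresh wild type, and 7550 in 1 fit of the 12 incubated arrays. Tests were limma 3.58.1 in R 4.3.3 (lmFit, eBayes, two-sided, Benjamini-Hochberg over all genes tested), called at an adjusted p under 0.05. They were also run on simulated data, with changes added only to genes above the filter level on every array. Those runs do not cover genes with signals as low as Dusp14. Every ± is a standard error unless SD is written. Up to 3 called genes with the largest difference were named per pathway list, and the 3 genes most like each member by Pearson r. The members, lists and rules were chosen with earlier results of these data known. Alternatives were other scalings, filters, probe sets and sets of arrays, a smooth muscle covariate and leaving out each array.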

Additional observations from a re-analysis of the deposited data

Results flagged for a closer look

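A single array stood apart from its group. Dusp14 read 5.08 in wild-type replicate 12, whereas the other 5 fresh wild-type arrays lay between 4.53 and 4.65. The gap to the nearest array was 0.772 of the whole range of the group. This was 1 of 18 groups examined in this way, and chance flags about 1 in 20. The same array had the lowest mean signal of the endothelial markers and the highest of the smooth muscle markers (9.69) among the 6 wild-type arrays; the part of these in the Dusp14 value was not tested.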

How the results depend on the processing

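Every difference kept its direction where it was called, under the alternatives run. Of the 4 genes called after incubation, 2 remained called with the smooth muscle covariate, and the count ran from 2 to 5 with 1 array left out. The 1 call with LPS became 0 with all 22 arrays in 1 fit, with only the 2 groups in the fit and with the covariate, and ran from 0 to 1 with 1 array left out; the same was true of LPS against oxPAPC and of oxLDL against oxPAPC. With oxLDL the count of 0 became 1 when eBayes fitted a trend with signal level (Dusp1, limma adjusted p = 0.0268) and stayed 0 with any array left out. With oxPAPC the 1 call became 2 without the level filter, 0 with only the 2 groups in the fit and 0 with the covariate, and ran from 0 to 2 with 1 array left out. For ApoE -/- against wild type and LPS against oxLDL the count was 0 throughout. The cause of these changes was not tested.

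Over all genes, the covariate took the calls from 31 to 1 for ApoE -/-, from 4411 to 2289 for medium, from 682 to 114 for LPS, from 212 to 10 for oxLDL, from 1607 to 0 for oxPAPC, from 652 to 387 for LPS against oxPAPC and from 934 to 512 for oxLDL against oxPAPC. A fit of all 22 arrays gave 77, and no level filter 6, for ApoE -/-. All 22 arrays gave 1079 for LPS, 543 for oxLDL and 647 (from 382) for LPS against oxLDL. They gave 938 for LPS against oxPAPC and 1288 for oxLDL against oxPAPC. With only the 2 groups in the fit there were 96 for oxLDL, 223 for LPS against oxLDL, 345 for LPS against oxPAPC and 549 for oxLDL against oxPAPC. With 1 array left out the counts ran from 1 to 68 for ApoE -/-, 3605 to 4370 for medium, 233 to 348 for LPS, 22 to 267 for oxLDL, 730 to 1989 for oxPAPC, 118 to 265 for LPS against oxLDL, 238 to 1199 for LPS against oxPAPC and 344 to 1367 for oxLDL against oxPAPC. The second probe sets of Spry2 and Spry4 were added after the data were seen. No paired analysis was possible because the groups compared share fewer than 2 replicate numbers. Signals near the 40th percentile, as for Dusp14 and Spry4, limit what the arrays resolve.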

Other observations

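Relations among these genes were examined within the 10 fresh arrays, with the genotype means removed. None of the 27 passed Benjamini-Hochberg correction. Dusp16 and Spry2 had Pearson r = 0.78 (permutation p = 0.0136) and Spearman rho = 0.794 (permutation p = 0.0171), and r = 0.666 without the 2 arrays farthest from the median. Dusp1 and Dusp8 had r = 0.75 (permutation p = 0.022), rho = 0.77 (permutation p = 0.0181) and r = 0.494 without 2 arrays. Both gave an adjusted permutation p of 0.212 for r. Dusp1 and the mean of the endothelial markers had r = -0.696 (permutation p = 0.0318). Marker levels differed among these arrays, with smooth muscle between 8.77 and 9.69, and the values are descriptions.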
